A study of Mus musculus with 36 samples.

Results

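Genes of DNA replication and of mitosis were followed in whole brains of mice with experimental autoimmune encephalomyelitis (EAE), a model of demyelinating inflammation raised against a myelin peptide. The set held 32 genes, named by symbol, of the 54532 gene identifiers counted. It had 10 replication genes (the helicase subunits Mcm2 to Mcm7, Pcna, Rrm1, Rrm2 and Tyms) and 22 mitosis genes, and all 32 passed the filter on low counts. All mice were wild-type C57BL/6, and brains were taken at day 19, the peak of disease. The farnesol group (n = 10) had EAE and was gavaged daily with 100 mg/kg/day of trans,trans-farnesol, with corn oil as the carrier. The vehicle group (n = 9) had EAE and corn oil by gavage, and the untreated group (n = 9) had EAE alone. Naive mice (n = 8) were healthy. EAE was raised with the MOG35-55 peptide, Freund's complete adjuvant and pertussis toxin, and no group analysed here was given adjuvant and toxin alone. The labels do not say when gavage began, nor that each numbered replicate is 1 animal, so p-values measure the spread between these libraries.

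A dividing cell copies its DNA in S phase and parts the copies in mitosis. The Mcm proteins form the ring-shaped helicase that unwinds DNA, Pcna is the clamp that holds the polymerase on it, and ribonucleotide reductase and thymidylate synthase supply its building blocks. The mitotic genes, which peak later in the cycle, encode the cyclin and kinase that start mitosis, the checkpoint, the spindle motors and the ligase parts that end it. Most neurons of the adult brain do not divide. Cells that can include glial precursors, microglia, progenitors of the neurogenic niches and, in EAE, leukocytes that enter from blood.

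Total read counts per library were 15369778 to 23607662 in farnesol, 19192190 to 22069372 in vehicle, 14705992 to 24211092 in untreated and 14710195 to 23014228 in naive libraries. The libraries fell into 2 sets by a ribosomal RNA gene, CT010467.1, with a gap near 4000 CPM (read counts scaled by library size). Farnesol replicates 4 to 10 and all naive libraries lay above it, and farnesol replicates 1 to 3 and all vehicle and untreated libraries below it; no source used here names a batch. Transcripts of the cerebellum list were low in 1 farnesol, 1 untreated and 1 naive library. The transcript Sbp exceeded 1 CPM in 3 vehicle and 5 untreated libraries. Neuron, astrocyte and myelin markers were abundant in every library, as the label of whole brain implies.

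Many mitosis genes were higher in EAE brains than in naive brains, while the change of 1 replication gene passed the test. Against naive, 12 of the 22 mitosis genes rose in farnesol brains, 11 in vehicle brains and 5 in untreated brains, and 0 fell. The share of all genes called lower was 16.3% in farnesol, 15.2% in vehicle and 11.3% in untreated brains. Of the 10 replication genes, 0 changed in farnesol brains, 1 (Mcm7) rose in vehicle brains and 0 changed in untreated brains. The farnesol count of 0 is close to the threshold, since Mcm7 was called higher in 7 and Mcm4 lower in 5 of 11 other ways of processing. A change is a log2 difference between group means with its standard error (SE), called at an adjusted p below 0.05 by edgeR's quasi-likelihood test with Benjamini-Hochberg adjustment over all 18438 genes tested. The share of all these genes called in either direction was 34.2% in farnesol, 31.5% in vehicle and 24.9% in untreated against naive brains. Of the 32 genes 12, 12 and 5 were called, near these shares in farnesol and vehicle brains and below in untreated brains. The share of all genes called higher was 17.9% in farnesol, 16.3% in vehicle and 13.6% in untreated brains. Among the mitosis genes it was 54.5%, 50% and 22.7%. The median log2 change of the mitosis genes was 0.65 in farnesol, 0.61 in vehicle and 0.45 in untreated brains. That of the replication genes was 0.01 in farnesol, 0.13 in vehicle and -0.06 in untreated brains, and that of all genes tested lay within 0.01 of 0. The 3 comparisons share the naive libraries and are not independent of each other. All vehicle and untreated libraries lie in one library set and all naive libraries in the other, so for these groups set and disease cannot be told apart; farnesol brains allow a comparison within 1 set, given further on. In bulk brain RNA, fewer cells of a type and less RNA per cell cannot be told apart.

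**Figure D1:**
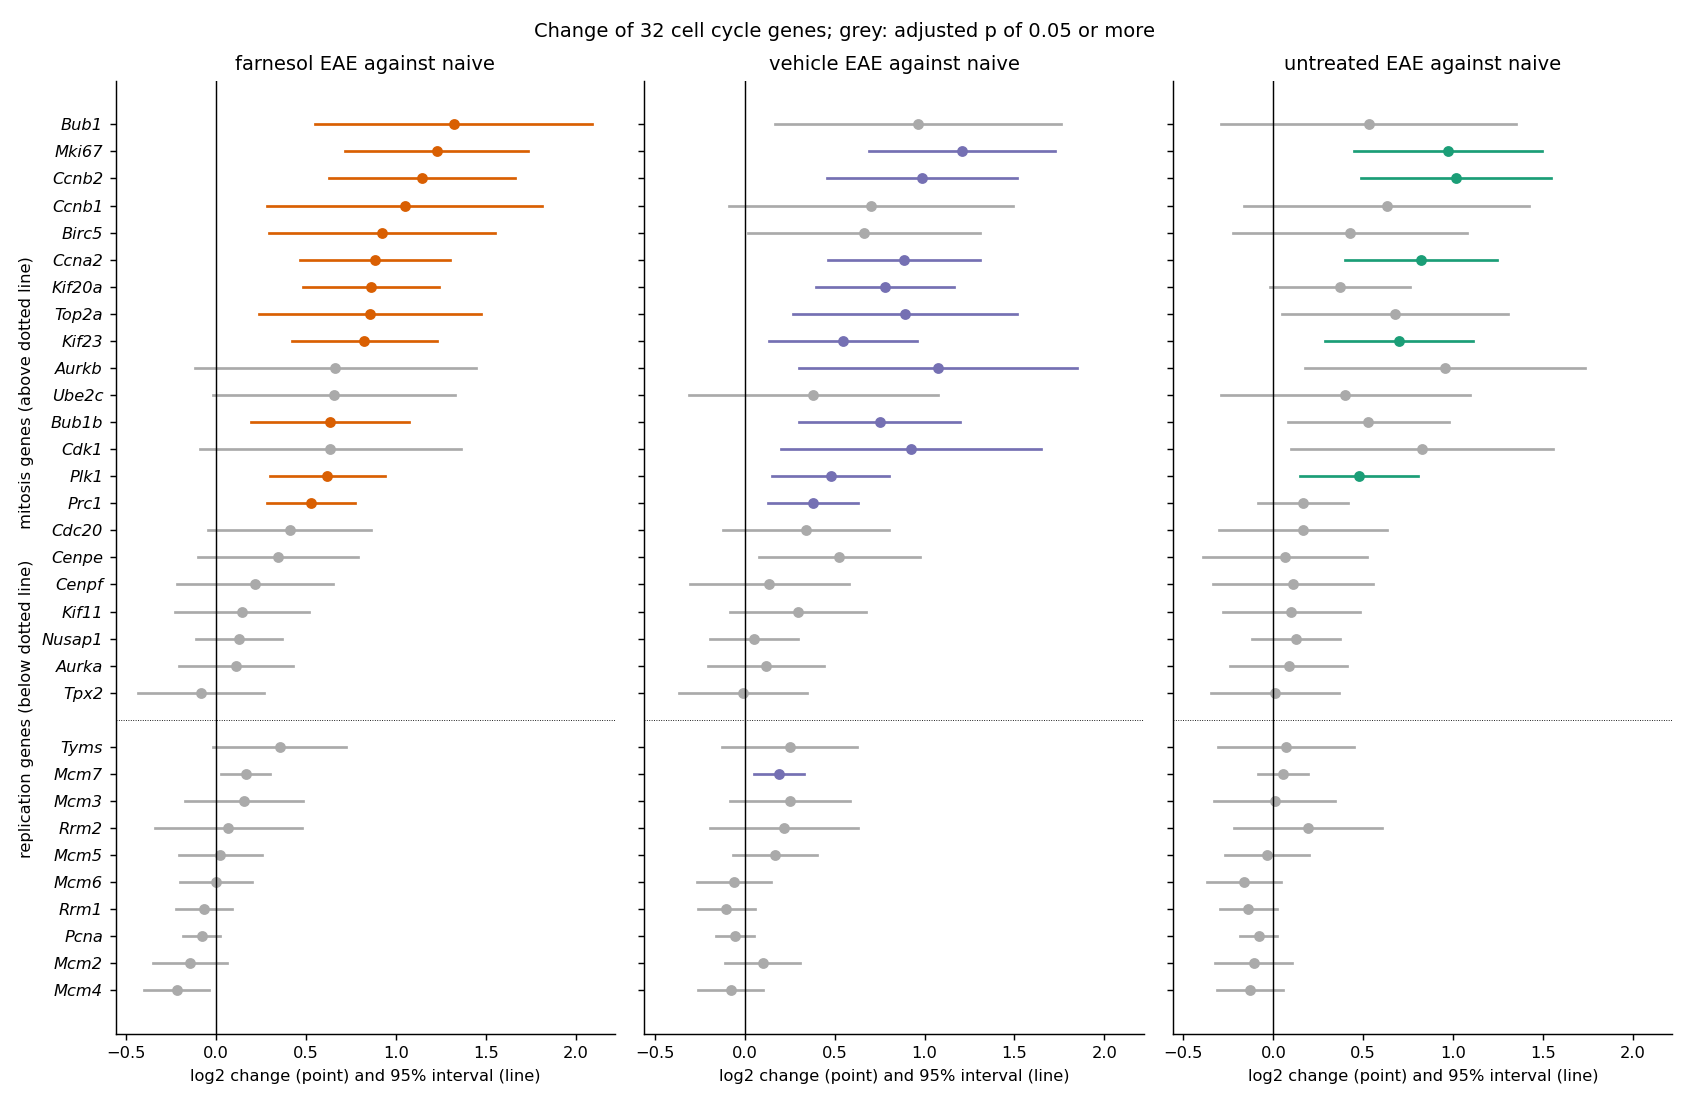
Log2 change of each of the 32 genes against naive brains, with its 95% interval, in farnesol, vehicle and untreated EAE brains; coloured points passed an adjusted p of 0.05. The 12, 11 and 5 mitosis genes that rose lie right of 0, while the replication genes below the dotted line lie between -0.22 and 0.35.

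Mki67, Ccna2, Ccnb2, Plk1 and Kif23 were called higher in each of the 3 comparisons with naive brains. Mki67 encodes Ki-67, the protein that coats mitotic chromosomes and serves as a marker of proliferating cells (chr7:135689784-135716361, GRCm38). It ranged between 2.36 and 8.60 CPM (median 3.59) in farnesol libraries, 2.54 and 7.66 CPM (median 3.28) in vehicle libraries, 2.32 and 4.85 CPM (median 3.44) in untreated libraries and 1.14 and 2.36 CPM (median 1.91) in naive libraries. All 9 vehicle libraries, 9 of 10 farnesol libraries and 8 of 9 untreated libraries lay above every naive library. The log2 change was 1.23 ± 0.25 in farnesol (adjusted p = 0.000309), 1.21 ± 0.26 in vehicle (adjusted p = 0.000439) and 0.97 ± 0.26 in untreated brains (adjusted p = 0.00495; edgeR, SE).

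Ccnb2 encodes cyclin B2, a partner of the mitotic kinase Cdk1 (chr9:70407692-70421547). Its level was 0.339 to 3.09 CPM (median 1.54) in farnesol, 0.963 to 2.02 CPM (median 1.32) in vehicle, 0.909 to 2.44 CPM (median 1.253) in untreated and 0.435 to 0.827 CPM (median 0.711) in naive libraries. Every vehicle and untreated library lay above every naive one, and 1 farnesol library, replicate 7, lay below them all. Such full separation upwards was found for 3.23% of all genes in farnesol, 3.79% in vehicle and 2.62% in untreated against naive brains. Among the 22 mitosis genes it was found for 0 in farnesol, for Mki67 and Ccnb2 in vehicle, and for Ccnb2 and Ccna2 in untreated brains. The log2 change of Ccnb2 was 1.15 ± 0.26 in farnesol, 0.98 ± 0.26 in vehicle and 1.01 ± 0.26 in untreated brains (edgeR adjusted p = 0.00074, 0.00378 and 0.00383).

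Ccna2 encodes cyclin A2, which acts in S phase and at mitotic entry (chr3:36564865-36572150). It reached 1.37 to 3.99 CPM (median 2.22) in farnesol, 1.35 to 3.58 CPM (median 2.43) in vehicle, 1.77 to 4.13 CPM (median 2.15) in untreated and 0.923 to 1.66 CPM (median 1.36) in naive libraries. In 8 of 10 farnesol, 7 of 9 vehicle and 9 of 9 untreated libraries it exceeded every naive library, and its log2 change was 0.88 ± 0.21, 0.89 ± 0.21 and 0.82 ± 0.21 in these groups (edgeR adjusted p = 0.00113, 0.00129 and 0.00357). Exons of Ccna2 overlap those of Exosc9 on the other strand. Whether the counting used strand is not given in the sources used here, and Exosc9 changed by -0.15 in farnesol, -0.13 in vehicle and -0.11 in untreated brains.

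**Figure D2:**
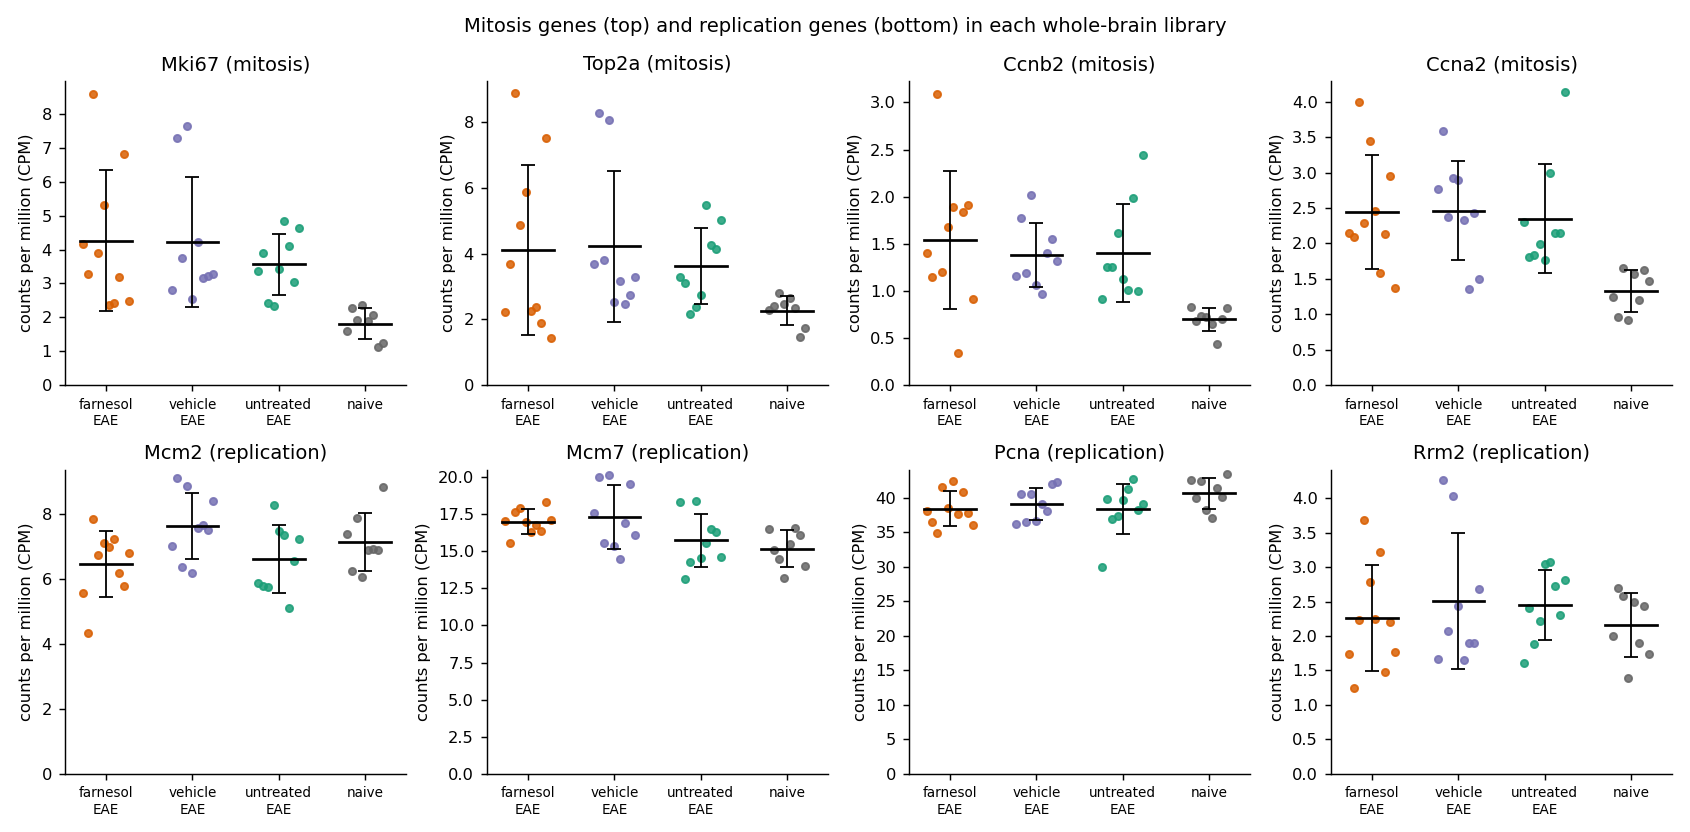
CPM in each of the 36 libraries (points), with the group mean and SD (bars), for 4 mitosis genes (top) and 4 replication genes (bottom) in farnesol EAE, vehicle EAE, untreated EAE and naive brains. Mki67 averaged 4.26, 4.22 and 3.57 CPM in the EAE groups against 1.81 CPM in naive brains, while Pcna averaged 38.4, 39.1 and 38.3 CPM against 40.6 CPM.

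Promoters of the genes of smallest p that were called are shown because mitotic and replication promoters are known to carry different short motifs. The CHR (TTTGAA or TTCGAA) and CCAAT boxes are known from mitotic promoters, and E2F sites (TTTCCCGC, TTTCGCGC, TTTGCCGC or TTTGGCGC) from replication promoters. The sequences are the 250 bases before the annotated start from RefSeq (GRCm38.p6), 5′ to 3′ on the strand of the gene, which is the minus strand for all of them. Capitals mark the motifs on either strand, and no motif shown shares a base with another. Kif20a and Ccna2 are not shown.
Mki67 promoter, chr7:135716380-135716629: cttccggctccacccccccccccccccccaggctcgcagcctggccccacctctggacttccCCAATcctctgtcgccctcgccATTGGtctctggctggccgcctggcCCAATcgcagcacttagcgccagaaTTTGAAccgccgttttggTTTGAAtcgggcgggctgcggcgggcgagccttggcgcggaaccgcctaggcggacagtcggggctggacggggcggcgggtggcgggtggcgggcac
Ccnb2 promoter, chr9:70421555-70421804: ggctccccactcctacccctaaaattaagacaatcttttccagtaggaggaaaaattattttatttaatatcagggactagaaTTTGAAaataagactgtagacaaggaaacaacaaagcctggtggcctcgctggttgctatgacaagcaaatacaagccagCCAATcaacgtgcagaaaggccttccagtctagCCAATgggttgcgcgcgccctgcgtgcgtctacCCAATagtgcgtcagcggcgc
Kif23 promoter, chr9:61946800-61947049: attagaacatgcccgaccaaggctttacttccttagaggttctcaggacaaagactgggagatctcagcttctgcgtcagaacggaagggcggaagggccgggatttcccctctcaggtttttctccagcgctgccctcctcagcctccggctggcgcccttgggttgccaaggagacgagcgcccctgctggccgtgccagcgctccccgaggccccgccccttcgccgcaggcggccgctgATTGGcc
Mcm7 promoter, first start, chr5:138171884-138172133: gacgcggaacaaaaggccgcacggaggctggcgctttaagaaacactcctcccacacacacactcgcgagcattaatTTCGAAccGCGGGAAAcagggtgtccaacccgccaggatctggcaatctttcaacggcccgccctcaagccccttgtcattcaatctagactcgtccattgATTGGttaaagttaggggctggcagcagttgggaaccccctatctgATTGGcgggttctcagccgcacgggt
Mcm7 promoter, second start, chr5:138171267-138171516: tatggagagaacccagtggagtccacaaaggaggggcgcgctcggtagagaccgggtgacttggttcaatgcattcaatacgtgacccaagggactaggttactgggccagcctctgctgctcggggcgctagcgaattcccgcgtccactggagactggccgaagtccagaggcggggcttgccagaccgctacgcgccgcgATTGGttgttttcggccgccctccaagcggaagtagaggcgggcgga

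In these letters Mki67 has CHR motifs 116 and 98 bases before its start and 3 CCAAT boxes, counted to the first base of the motif. Ccnb2 has a CHR motif 167 bases and CCAAT boxes 87, 54 and 21 bases before its start. Kif23 has a CCAAT box 7 bases before its start, and its CHR match lies at or after the start. Mcm7 has an E2F match (GCGGGAAA on this strand) 165 bases before its first start, beside a CHR match at 173 bases. RefSeq entries matched 27 of the 32 genes, 9 for replication and 18 for mitosis. In the window of 250 bases before to 50 after a start, either strand, a CHR motif was present for 14 of 18 mitosis genes (77.8%), 2 of 9 replication genes (22.2%) and 21.7% of 27025 genes in the table. An E2F motif was present for 1 of 18 mitosis genes (5.56%), 4 of 9 replication genes (44.4%) and 2.6% of all genes. CCAAT boxes were present for 88.9% of each class and 41.1% of all genes. A match is a string of letters and no evidence of binding.

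Kinases, the checkpoint and the chromosomal passenger genes followed next. Plk1, a kinase of mitotic entry and of cytokinesis, had 1.36 to 2.54 CPM in farnesol, 1.19 to 2.36 CPM in vehicle, 1.39 to 2.32 CPM in untreated and 0.690 to 1.62 CPM in naive libraries. The groups overlapped, and it rose by 0.62 ± 0.16, 0.48 ± 0.16 and 0.48 ± 0.16 in the 3 EAE groups (edgeR adjusted p = 0.00257, 0.0211 and 0.0266). Bub1, a kinase of the spindle checkpoint, gave the highest mitotic change in farnesol brains, 1.32 ± 0.38 (adjusted p = 0.00683), at 0.674 ± 0.485 CPM against 0.266 ± 0.131 CPM in naive brains (SD, n = 10 and 8). Its changes of 0.97 ± 0.39 in vehicle and 0.53 ± 0.41 in untreated brains did not pass (adjusted p = 0.0569 and 0.365). Its median count was 7.5 reads per library. Bub1b, the BubR1 checkpoint protein, rose by 0.64 ± 0.22 in farnesol and 0.75 ± 0.22 in vehicle brains and measured 0.53 ± 0.22 in untreated brains (adjusted p = 0.0213, 0.00839 and 0.077).

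Cdk1, the mitotic kinase itself, rose in vehicle brains (0.93 ± 0.36, adjusted p = 0.0446) and measured 0.63 ± 0.36 in farnesol and 0.82 ± 0.36 in untreated brains without passing. Ccnb1, its partner cyclin B1, rose in farnesol brains (1.05 ± 0.38, adjusted p = 0.029) and measured 0.70 ± 0.39 in vehicle and 0.63 ± 0.39 in untreated brains. Aurkb and Birc5 encode the Aurora B kinase and survivin, which act in 1 complex on chromosomes. Aurkb rose in vehicle brains (1.08 ± 0.38, adjusted p = 0.0288) and Birc5 in farnesol brains (0.92 ± 0.31, adjusted p = 0.0197). The changes of Aurkb in farnesol brains (0.66 ± 0.39) and of Birc5 in vehicle brains (0.66 ± 0.32) did not pass. Cdk1, Ccnb1, Aurkb and Birc5 averaged 0.572 to 1.48 CPM in farnesol, 0.774 to 1.24 CPM in vehicle, 0.713 to 1.04 CPM in untreated and 0.355 to 0.780 CPM in naive brains. A call in 1 EAE group and not in another does not show that the groups differ, and their direct comparison is given further on.

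Kif20a, a kinesin of the central spindle (chr18:34624613-34633277), ranged between 1.46 and 3.29 CPM (median 2.22) in farnesol, 1.02 and 3.27 CPM (median 2.08) in vehicle, 1.20 and 2.06 CPM (median 1.45) in untreated and 0.895 and 1.85 CPM (median 1.17) in naive libraries. In farnesol brains 9 of 10 libraries exceeded every naive one, against 6 of 9 in vehicle and 3 of 9 in untreated brains. It rose by 0.86 ± 0.19 in farnesol and 0.78 ± 0.19 in vehicle brains (edgeR adjusted p = 0.000512 and 0.00166) and measured 0.37 ± 0.19 in untreated brains (adjusted p = 0.162). Kif23, the kinesin of the centralspindlin complex (chr9:61915905-61946774), had 1.10 to 3.57 CPM (median 1.91) in farnesol, 1.28 to 2.19 CPM (median 1.55) in vehicle, 1.37 to 2.63 CPM (median 1.72) in untreated and 0.653 to 1.75 CPM (median 1.11) in naive libraries. It rose by 0.82 ± 0.20, 0.55 ± 0.20 and 0.70 ± 0.20 in the 3 EAE groups, with overlap of each with the naive libraries (edgeR adjusted p = 0.00155, 0.0366 and 0.00981).

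Prc1, which bundles the microtubules of the central spindle, rose by 0.53 ± 0.12 in farnesol and 0.38 ± 0.12 in vehicle brains (edgeR adjusted p = 0.000879 and 0.0164) and measured 0.16 ± 0.12 in untreated brains. Its exons overlap those of Rccd1 on the opposite strand, which changed by 0.64, 0.55 and 0.40 in the same groups (adjusted p = 3.28e-05, 0.000251 and 0.00685). Without known strand use the reads of Prc1 and Rccd1 cannot be told apart where they overlap. Kif20a overlaps Cdc23, whose changes were 0.08 in farnesol, 0.14 in vehicle and 0.08 in untreated brains. In all, 9 of the 32 genes overlap another annotated gene on exons: Mcm7, Top2a, Ccna2, Plk1, Kif20a, Nusap1, Prc1, Ube2c and Cdc20.

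Top2a, the topoisomerase that untangles copied DNA before and during mitosis, showed wide spread. It ranged between 1.44 and 8.89 CPM (median 3.04) in farnesol, 2.46 and 8.30 CPM (median 3.28) in vehicle, 2.17 and 5.48 CPM (median 3.29) in untreated and 1.46 and 2.81 CPM (median 2.38) in naive libraries. Only 5 of 10 farnesol, 6 of 9 vehicle and 6 of 9 untreated libraries exceeded every naive library. It rose by 0.86 ± 0.30 in farnesol and 0.89 ± 0.31 in vehicle brains (edgeR adjusted p = 0.0269 and 0.0248), and its 0.68 ± 0.31 in untreated brains did not pass (adjusted p = 0.109).

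A further 8 mitosis genes were called in 0 of the 3 comparisons with naive brains. They were Aurka, the centrosomal Aurora kinase, the kinetochore genes Cenpe and Cenpf, the bipolar spindle motor Kif11, the spindle assembly factors Tpx2 and Nusap1, and Ube2c and Cdc20, which work with the anaphase-promoting complex. Tpx2 gave -0.08 ± 0.17 in farnesol, -0.01 ± 0.18 in vehicle and 0.01 ± 0.18 in untreated brains, at 3.52 to 3.75 CPM in the EAE groups and 3.72 CPM in naive brains. Nusap1 gave 0.13 ± 0.12, 0.05 ± 0.12 and 0.13 ± 0.12, and Aurka 0.11 ± 0.16, 0.12 ± 0.16 and 0.08 ± 0.16, in farnesol, vehicle and untreated brains. Cenpe gave 0.35 ± 0.22, 0.53 ± 0.22 and 0.07 ± 0.22, and Ube2c 0.66 ± 0.33, 0.38 ± 0.34 and 0.40 ± 0.34, in the same order of groups. Cenpf gave 0.22 ± 0.21, 0.14 ± 0.22 and 0.11 ± 0.22, Kif11 0.15 ± 0.18, 0.30 ± 0.19 and 0.10 ± 0.19, and Cdc20 0.41 ± 0.22, 0.34 ± 0.23 and 0.17 ± 0.23. The upper ends of their 95% intervals ran from 0.27 for Tpx2 to 1.33 for Ube2c in farnesol brains.

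Replication genes were the more abundant class. Per kilobase of exon, their median level was 1.94 CPM in farnesol, 1.97 CPM in vehicle, 1.79 CPM in untreated and 1.92 CPM in naive brains. For the mitosis genes it was 0.446, 0.444, 0.362 and 0.275 CPM per kilobase in these groups. Pcna was highest of the 32, with 16.9 CPM per kilobase in naive brains, and Bub1 lowest, with 0.0612. The median SE of a log2 change against naive was 0.10 for replication genes and 0.22 for mitosis genes, in each of the 3 EAE groups, so the replication genes were measured with the smaller error. Their largest upper interval ends against naive were 0.72 in farnesol, 0.63 in vehicle and 0.61 in untreated brains, and their lowest lower ends -0.40, -0.26 and -0.37.

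Mcm7, a helicase subunit (chr5:138164583-138172422), gave the 1 call among the replication genes. Its level was 15.5 to 18.3 CPM (median 17.0) in farnesol, 14.5 to 20.2 CPM (median 16.9) in vehicle, 13.1 to 18.4 CPM (median 15.6) in untreated and 13.2 to 16.6 CPM (median 15.3) in naive libraries. It rose by 0.19 ± 0.07 in vehicle brains (edgeR adjusted p = 0.0303) and measured 0.17 ± 0.07 in farnesol (adjusted p = 0.0534) and 0.05 ± 0.07 in untreated brains (adjusted p = 0.629). Mcm7 overlaps exons of Ap4m1 and Cops6 on the other strand and hosts the microRNA genes Mir25 and Mir93. Ap4m1 changed by 0.25 in farnesol, 0.27 in vehicle and 0.17 in untreated brains, and Cops6 by -0.21, -0.23 and -0.17.

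Mcm4, also of the helicase, had 10.2 to 14.3 CPM (median 12.1) in farnesol, 9.77 to 16.7 CPM (median 13.8) in vehicle, 10.3 to 14.9 CPM (median 13.8) in untreated and 12.4 to 15.6 CPM (median 14.5) in naive libraries. Its log2 changes of -0.22 ± 0.09, -0.08 ± 0.09 and -0.13 ± 0.09 in the 3 EAE groups did not pass (adjusted p = 0.0517, 0.543 and 0.31). Mcm2, another subunit of the same ring, gave -0.14 ± 0.10, 0.10 ± 0.10 and -0.11 ± 0.10, at 4.33 to 7.84 CPM in farnesol, 6.19 to 9.12 CPM in vehicle, 5.09 to 8.28 CPM in untreated and 6.05 to 8.82 CPM in naive libraries. Mcm3, Mcm5 and Mcm6 gave 0.16, 0.02 and 0.00 in farnesol, 0.25, 0.17 and -0.06 in vehicle, and 0.01, -0.03 and -0.16 in untreated brains. The helicase subunits thus lay on either side of 0, with only the Mcm7 change in vehicle brains past the threshold.

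Pcna measured 34.9 to 42.5 CPM (median 37.9) in farnesol, 36.2 to 42.3 CPM (median 39.1) in vehicle, 30.0 to 42.6 CPM (median 39.0) in untreated and 37.0 to 43.4 CPM (median 40.8) in naive libraries. No EAE library exceeded the highest naive library. Its log2 changes of -0.08 ± 0.05, -0.06 ± 0.05 and -0.08 ± 0.05 did not pass, with intervals that end at 0.02, 0.05 and 0.02. Rrm1, the large subunit of ribonucleotide reductase, had 16.4 to 26.3 CPM (median 23.8) in farnesol, 19.4 to 26.0 CPM (median 22.8) in vehicle, 16.4 to 26.4 CPM (median 22.5) in untreated and 22.2 to 25.2 CPM (median 24.5) in naive libraries, and it changed by -0.07 ± 0.08, -0.10 ± 0.08 and -0.14 ± 0.08. Rrm2, the small subunit, gave 0.07 ± 0.20, 0.22 ± 0.20 and 0.19 ± 0.20. Tyms, the thymidylate synthase, had 1.51 to 3.66 CPM (median 2.46) in farnesol, 1.55 to 3.68 CPM (median 1.98) in vehicle, 1.35 to 2.41 CPM (median 2.08) in untreated and 1.08 to 2.62 CPM (median 2.03) in naive libraries, with changes of 0.35 ± 0.18, 0.25 ± 0.19 and 0.07 ± 0.19. None of these passed in the edgeR test.

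High mitosis values were concentrated in a few farnesol and vehicle libraries. Farnesol replicate 3 held the highest value of its group for 17 of the 22 mitosis genes, and vehicle replicates 2 and 4 for 10 each. In the untreated group, replicate 6 was highest for 7 genes and replicate 9 for 5. The naive group was much like the untreated one in this, with replicate 3 highest for 6 genes. The summed CPM of the 22 genes was 39.6 to 85.5 (median 43.7) in farnesol, 40.7 to 71.2 (median 45.3) in vehicle, 39.3 to 54.5 (median 44.5) in untreated and 32.9 to 40.1 (median 34.9) in naive libraries. That of the 10 replication genes was 106 to 133 (median 126), 114 to 150 (median 123), 106 to 131 (median 123) and 117 to 131 (median 127) in the same groups. Vehicle replicates 2 and 4 were among the 3 highest of their group for 10 and 9 of the 10 replication genes, and farnesol replicate 3 for 7.

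**Figure D3:**
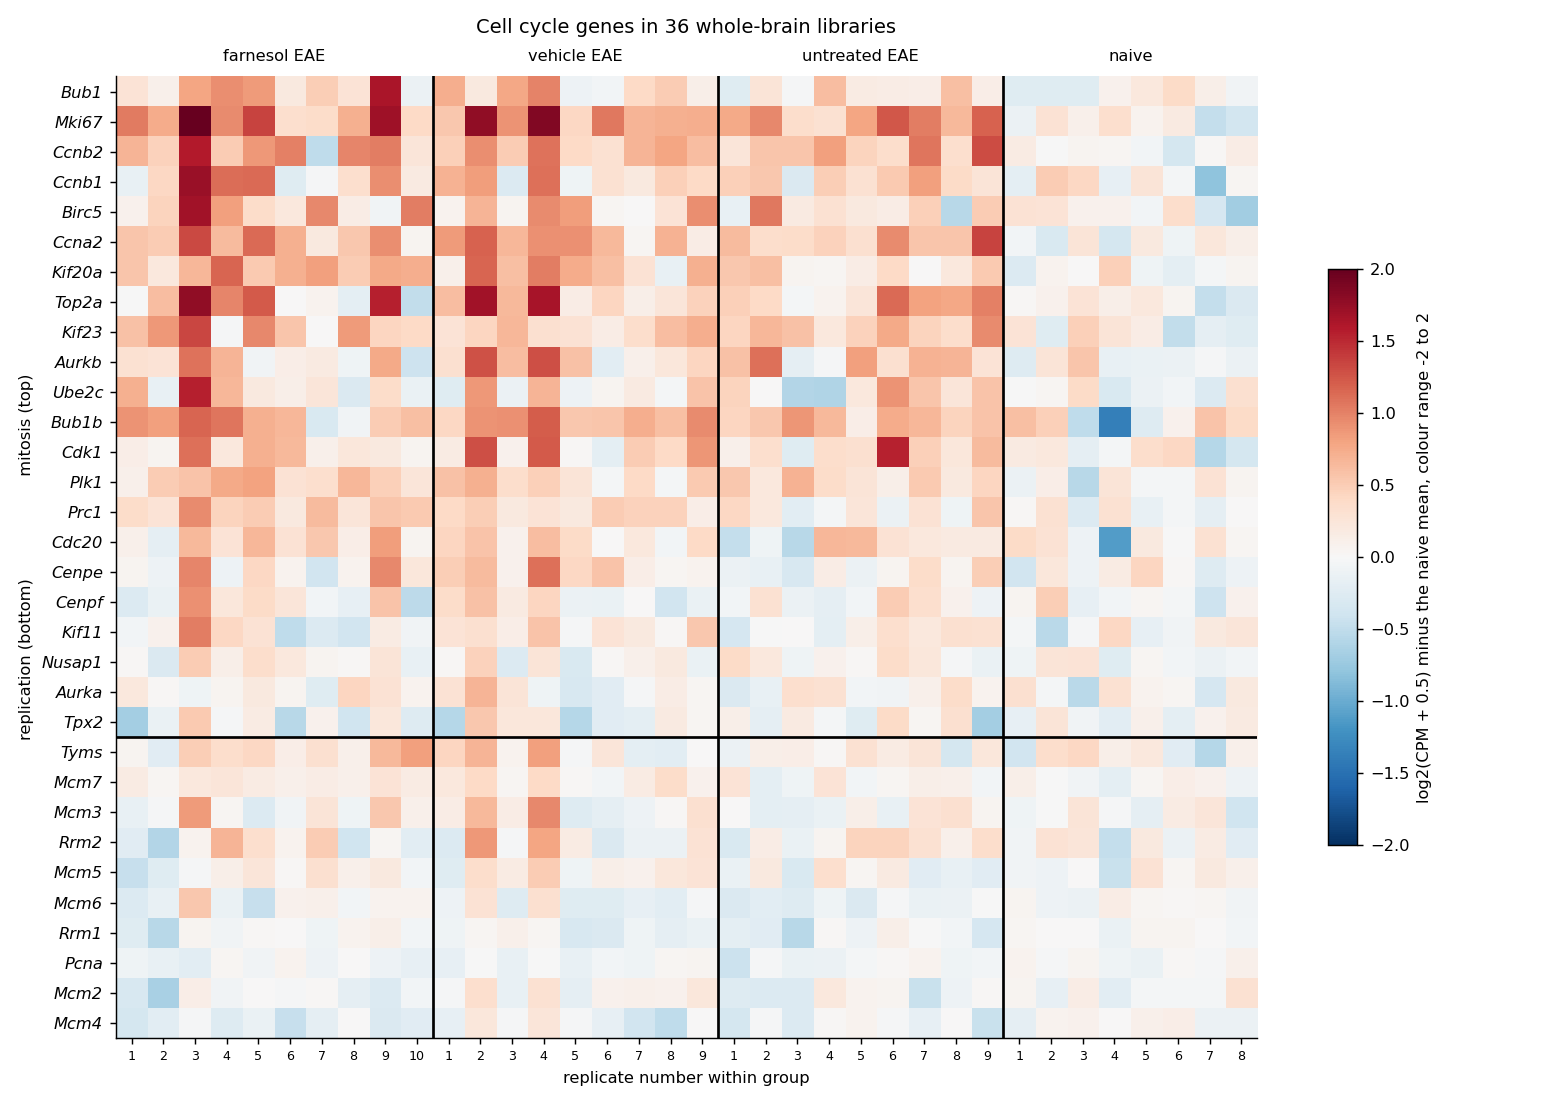
Log2(CPM + 0.5) of each gene in each library minus the naive mean of that gene, in farnesol, vehicle, untreated and naive libraries (columns by replicate number), with mitosis genes above the horizontal line and replication genes below it. Farnesol replicates 3 and 9 and vehicle replicates 2 and 4 stand out in red across the mitosis genes, and the replication genes show paler colours.

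Leukocyte and microglia markers were summed in the same libraries. Summed T cell markers (9 genes) were 8.49 to 24.5 CPM in farnesol, 8.52 to 26.7 CPM in vehicle, 8.19 to 21.3 CPM in untreated and 6.39 to 10.2 CPM in naive libraries. Farnesol replicate 3 had 24.5 CPM and vehicle replicate 4 had 26.7 CPM, the highest of their groups, and untreated replicate 6 had 21.3 CPM. Farnesol replicate 5, which had a mitosis sum of 59.8 CPM, had 9.44 CPM of T cell markers, within the naive range, and 76.7 CPM of monocyte markers, above it. Farnesol replicate 9 had 13.9 CPM of T cell and 152 CPM of monocyte markers and a mitosis sum of 63.2 CPM. In vehicle replicate 2 these were 18.8, 183 and 71.2 CPM. Farnesol replicate 1 had 17.1 CPM of T cell and 151 CPM of monocyte markers and a mitosis sum of 43.8 CPM. Vehicle replicate 6 had 16.5 and 101 CPM of these markers and a mitosis sum of 43.6 CPM. Monocyte and macrophage markers (8 genes) summed to 50.4 to 227 CPM in farnesol, 46.3 to 497 CPM in vehicle, 51.6 to 196 CPM in untreated and 14.2 to 17.1 CPM in naive libraries. Vehicle replicate 4 and farnesol replicate 3 had the highest monocyte sums of their groups and also the highest microglia sums. Neutrophil markers did not follow this order. They summed to 22.8 to 70.6 CPM in farnesol, 25.8 to 62.5 CPM in vehicle, 11.1 to 64.4 CPM in untreated and 1.68 to 4.13 CPM in naive libraries. Farnesol replicate 3 had the lowest neutrophil sum of its group, 22.8 CPM, vehicle replicate 2 the highest of its group, 62.5 CPM, and vehicle replicate 4 had 36.7 CPM. Untreated replicates 6 and 9 had 28.8 and 16.4 CPM, below the untreated median of 36.8 CPM. Of the 8 tested genes of each list, 8 monocyte and 8 neutrophil markers rose in each EAE group. For T cell markers, 4 rose in farnesol, 6 in vehicle and 6 in untreated brains. The share of all genes called higher was 17.9%, 16.3% and 13.6% in these groups. Cd3d was at 0 in 8 libraries and Cd3g in 6.

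No marker of oligodendrocyte precursors or neural progenitors was called higher. Of 7 oligodendrocyte precursor markers 0 rose and 3, 4 and 2 fell in farnesol, vehicle and untreated brains, and of 8 neural progenitor and neuroblast markers 0 rose and 4, 4 and 3 fell. Pdgfra, the receptor that marks oligodendrocyte precursors, fell by 0.22 in farnesol, by 0.28 in vehicle and by 0.26 in untreated brains. Of 8 microglia markers 1, 1 and 4 rose (12.5%, 12.5% and 50%) and 0, 1 and 0 fell. The fall was not particular to precursors. Of 6 neuron markers 6, 5 and 3 fell and 0 rose, and of 6 astrocyte markers 4, 1 and 2 fell and 1, 1 and 1 rose. The share of all genes called lower was 16.3%, 15.2% and 11.3%, and the share called higher 17.9%, 16.3% and 13.6%, in the same order of groups. Summed microglia markers were 279 to 617 CPM in farnesol, 235 to 667 CPM in vehicle, 264 to 614 CPM in untreated and 297 to 345 CPM in naive libraries. The part of any of these cell types in the mitosis changes was not tested.

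**Figure D4:**
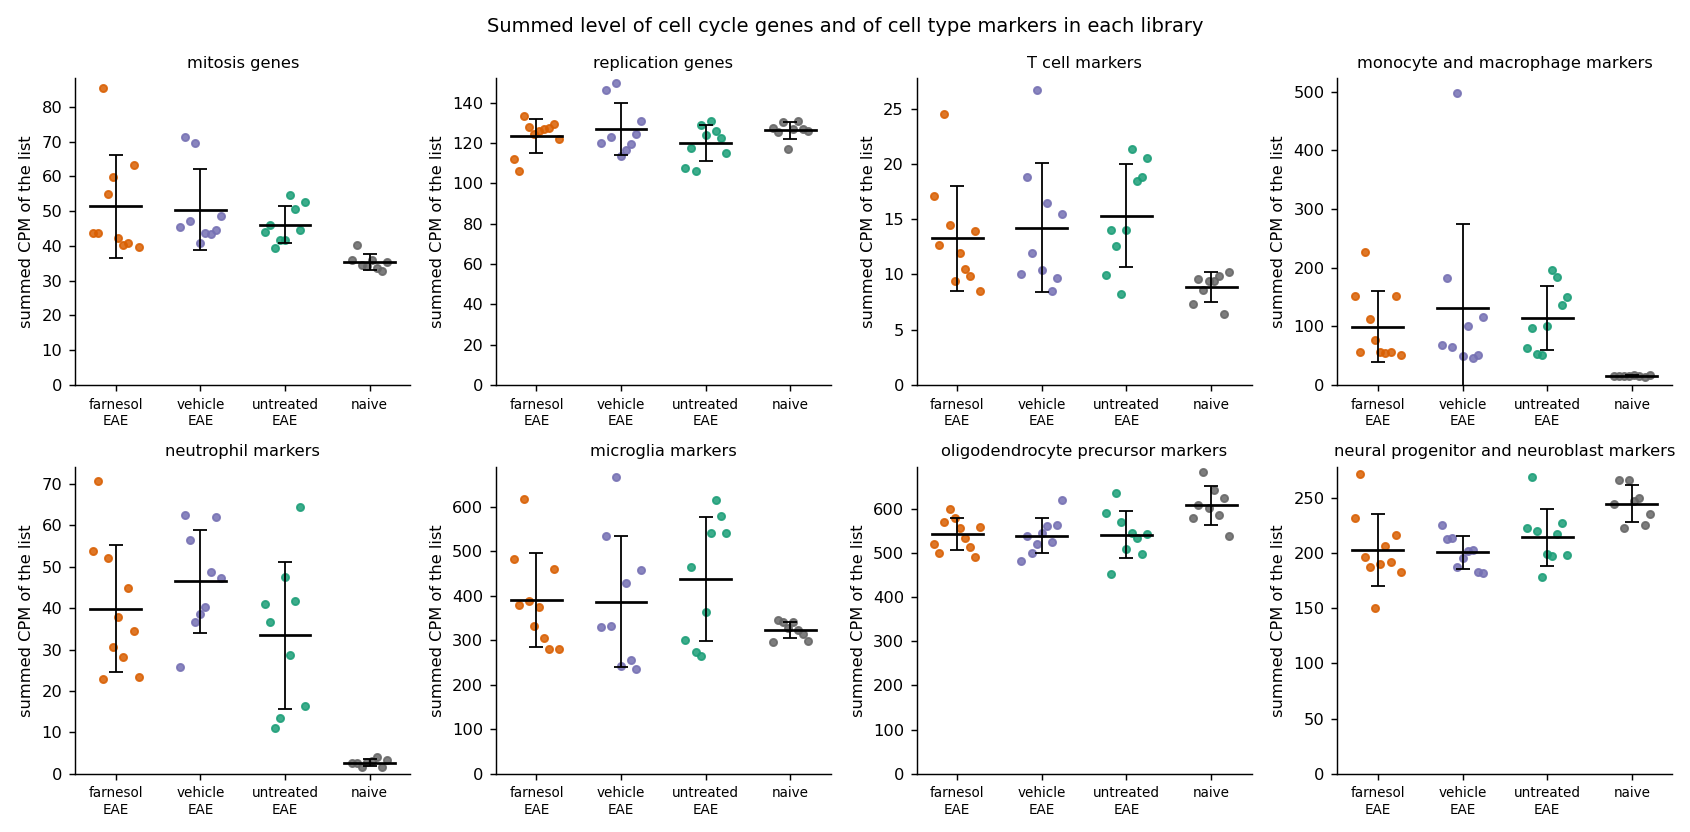
Summed CPM of the mitosis and replication genes and of 6 cell type marker lists in each library (points), with the group mean and SD (bars, not drawn below 0), in farnesol EAE, vehicle EAE, untreated EAE and naive brains. Mitosis sums reach 85.5 CPM in farnesol against at most 40.1 CPM in naive libraries, and only the vehicle sums (at least 40.7 CPM) lie wholly above the naive ones. The replication sums overlap between all 4 groups.

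Leaving out 1 library at a time kept 8 of the 12 farnesol calls, 6 of the 12 vehicle calls and 4 of the 5 untreated calls against naive in all 36 fits. Mki67, Ccna2 and Ccnb2 were among those kept in each group. Without farnesol replicate 3, 9 mitosis genes rose in farnesol brains, with a median of 0.51. Without the libraries rich in Sbp, 5 mitosis genes rose in vehicle brains. The share of all genes called in these fits is not given here. A loss particular to these genes therefore cannot be told from a general one. In farnesol brains Birc5 was lost without farnesol replicate 3 (log2 change 0.68, edgeR adjusted p = 0.0728) and Bub1b without naive replicate 3 (0.55, adjusted p = 0.0544). Top2a was lost there without farnesol replicate 3 or 9 or naive replicate 7 (0.65 to 0.78, adjusted p 0.056 to 0.0843), and Ccnb1 without farnesol replicate 3, 4 or 5 or naive replicate 4 or 7 (0.76 to 0.99, adjusted p 0.0511 to 0.104). In vehicle brains Plk1 was lost without naive replicate 3 (0.38, adjusted p = 0.0594), and Top2a without vehicle replicate 2 or 4 or naive replicate 7 (0.71 to 0.82, adjusted p 0.0512 to 0.0746). Mcm7 was lost without vehicle replicate 2, 4 or 8 or naive replicate 3, 4 or 8 (0.16 to 0.18, adjusted p 0.0551 to 0.073). Kif23 was lost in vehicle brains without vehicle replicate 3, 8 or 9 or naive replicate 2, 6, 7 or 8 (0.46 to 0.52, adjusted p 0.061 to 0.0879). Aurkb was lost without vehicle replicate 2 or 4 or naive replicate 1, 4, 5, 6 or 8 (0.88 to 1.03, adjusted p 0.0503 to 0.079). Cdk1 was lost without vehicle replicate 2, 4, 7 or 9 or naive replicate 3, 4, 7 or 8 (0.74 to 0.94, adjusted p 0.0504 to 0.115). In untreated brains Plk1 was lost without untreated replicate 3 or naive replicate 3 (0.38 to 0.42, adjusted p 0.0592 to 0.0734).

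Farnesol could be set against naive within the library set that holds 7 farnesol and all 8 naive libraries. There 30 of the 32 genes passed the filter. In either direction 9 were called, a share near the 28.2% of all 17283 genes tested. The mitosis genes among the 9, Mki67, Ccnb2, Ccna2, Birc5, Plk1, Kif20a and Prc1, all rose. For this fit the share of all genes called higher was not counted. Mki67 rose by 1.06 ± 0.23 (edgeR adjusted p = 0.00189), Kif20a by 0.96 ± 0.18 (adjusted p = 0.000412) and Ccnb2 by 1.01 ± 0.28 (adjusted p = 0.00988). Kif23 (0.63 ± 0.24, adjusted p = 0.0525), Top2a (0.74 ± 0.29, adjusted p = 0.0592), Ccnb1 (0.91 ± 0.39, adjusted p = 0.0891) and Bub1b (0.47 ± 0.28, adjusted p = 0.216) no longer passed. Bub1 was not tested there. Of the replication genes, Mcm7 rose by 0.18 ± 0.06 (adjusted p = 0.0345) and Mcm4 fell by 0.22 on the log2 scale (adjusted p = 0.0357), while Pcna gave -0.04 ± 0.05. The median log2 change was 0.53 for mitosis and 0.05 for replication genes. Vehicle and untreated libraries lie wholly in the other set, so that for them set and disease cannot be told apart except through a set term estimated from the farnesol libraries alone. With that term 8 mitosis genes rose in farnesol, 1 (Kif20a) in vehicle and 0 in untreated brains. The median mitosis change was 0.52, 0.30 and 0.19. Of all genes 26.3%, 3.71% and 0.949% were called in either direction, and the share called higher was not counted for this fit either.

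Between the EAE groups none of the 32 genes passed the test. Of the 10 farnesol libraries 7 lie in 1 library set, while all vehicle and untreated libraries lie in the other. Treatment and set are therefore partly mixed wherever farnesol brains are compared with these groups. Values of the 32 genes for these comparisons within 1 set, or with a set term, are not given here. Farnesol against vehicle brains gave 0 calls among the 32 genes, where 0.0922% of all genes were called (0.0814% higher and 0.0108% lower), and 1 gene had an unadjusted p below 0.05. That gene was Mcm2, at 6.45 ± 1.01 CPM in farnesol against 7.63 ± 1.02 CPM in vehicle brains (SD; log2 change -0.24 ± 0.10, edgeR adjusted p = 0.696). Mki67 differed by 0.02 between farnesol and vehicle brains, with a 95% interval of -0.44 to 0.48, and Pcna by -0.02, with an interval of -0.12 to 0.07. Over the mitosis genes the changes lay between -0.41 and 0.36, and their intervals reached -1.10 and 1.04.

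Farnesol against untreated brains also gave 0 calls, where 1.87% of all genes were called (0.96% higher and 0.911% lower), and 3 genes had an unadjusted p below 0.05. The closest was Prc1, at 4.93 ± 0.895 CPM in farnesol against 3.83 ± 0.805 CPM in untreated brains (SD; 0.37 ± 0.11, edgeR adjusted p = 0.0888), followed by Kif20a (0.49 ± 0.17, adjusted p = 0.141) and Bub1 (0.79 ± 0.34, adjusted p = 0.255). Prc1 was called when untreated replicate 9 was left out. Vehicle against untreated brains gave 0 calls, where 0.0217% of all genes were called, all lower, and 4 genes had an unadjusted p below 0.05. Kif20a (0.41 ± 0.18), Cenpe (0.46 ± 0.21), Mcm2 (0.21 ± 0.10) and Mcm7 (0.14 ± 0.07) were these 4, with adjusted p values of 0.525 to 0.587. For 0 of the 32 genes did every farnesol library exceed every vehicle library (0.00542% of all genes) or every untreated library (0.0488% of all genes). DESeq2 and limma-voom also called 0 of the 32 genes in all of these 3 comparisons.

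Wider lists of the same machinery were counted in the same way. Of 41 other mitosis genes tested, 12 rose in farnesol, 8 in vehicle and 3 in untreated brains against naive, and 0 fell. These are 29.3%, 19.5% and 7.32% of the list, beside 17.9%, 16.3% and 13.6% of all genes called higher, so the untreated share was below that of all genes and the vehicle share near it. Of 33 other replication genes 4, 3 and 1 rose and 2, 2 and 1 fell. The shares that rose, 12.1%, 9.09% and 3.03%, were below those of all genes in each comparison. Kif22, a chromosome-binding kinesin, rose in all 3 groups by 0.44 ± 0.10, 0.64 ± 0.10 and 0.48 ± 0.10 (edgeR adjusted p = 0.000563, 6.89e-06 and 0.000382). Kif2c, the microtubule-depolymerising kinesin of the centromere, rose by 1.63 ± 0.46, 1.53 ± 0.46 and 1.45 ± 0.47. Cenpa, the centromeric histone, and Kif15, a spindle kinesin, rose in farnesol (0.64 ± 0.16 and 0.66 ± 0.16) and vehicle brains (0.48 ± 0.16 and 0.77 ± 0.17). Among replication genes Tk1, the salvage thymidine kinase, rose in each EAE group by 0.79 ± 0.18, 0.71 ± 0.18 and 0.72 ± 0.18. Orc6, of the origin recognition complex, rose by 0.27 ± 0.09 in farnesol and 0.24 ± 0.09 in vehicle brains, and Uhrf1, which keeps DNA methylation at the fork, by 0.62 ± 0.24 in vehicle brains. Rpa1, of the single-strand DNA binding complex, fell by 0.15 in farnesol and by 0.15 in vehicle brains.

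Of 17 G1 cyclins, kinases and E2F factors 5, 3 and 4 rose and 3, 4 and 0 fell in farnesol, vehicle and untreated brains. The shares that rose were 29.4%, 17.6% and 23.5%, of which the vehicle share was near that of all genes (16.3%). Cdk2, the kinase of S phase entry, rose in each group (0.74 ± 0.15, 0.66 ± 0.15 and 0.58 ± 0.15; edgeR adjusted p = 0.000255, 0.00104 and 0.00473). Rbl1, the pocket protein p107, rose in farnesol (0.57 ± 0.16) and vehicle brains (0.77 ± 0.17), and E2f4, its transcription factor partner, rose in all groups by 0.14 ± 0.05, 0.20 ± 0.05 and 0.26 ± 0.05. Ccnd2, a D cyclin of G1, fell by 0.35 in farnesol and by 0.36 in vehicle brains.

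Of 11 cell cycle inhibitors tested 0 rose in farnesol, 2 in vehicle and 3 in untreated brains, and 0, 1 and 1 fell. The shares that rose were 0%, 18.2% and 27.3%, beside 17.9%, 16.3% and 13.6% of all genes. Cdkn1a encodes p21, which blocks cyclin-dependent kinases and can bind Pcna. It ranged between 12.6 and 26.8 CPM (median 18.9) in farnesol, 14.7 and 32.2 CPM (median 27.4) in vehicle, 18.9 and 50.6 CPM (median 34.4) in untreated and 13.4 and 22.4 CPM (median 18.4) in naive libraries. The farnesol libraries overlapped the naive ones and the lower untreated ones. Against naive it rose by 0.50 ± 0.16 in vehicle and 0.86 ± 0.16 in untreated brains (edgeR adjusted p = 0.0187 and 0.000193) and measured 0.04 ± 0.16 in farnesol brains (adjusted p = 0.888). In farnesol against untreated brains it fell by 0.83 on the log2 scale (adjusted p = 0.00228). Against vehicle brains the farnesol value was -0.46 ± 0.15 (adjusted p = 0.473). Recomputed in every alternative, a step chosen after the data were seen, the fall was called in 36 of 36 fits that left out 1 library. It was -0.61 ± 0.23 (adjusted p = 0.203) with the library set as a term, -0.62 ± 0.23 (adjusted p = 0.264) within the set that holds farnesol replicates 1 to 3, and -0.61 ± 0.18 (adjusted p = 0.0905) without the libraries rich in Sbp. Gadd45g, a stress-induced growth arrest gene, rose by 0.46 ± 0.10 in vehicle and 0.38 ± 0.10 in untreated brains and measured 0.19 ± 0.10 in farnesol brains (adjusted p = 0.138). Its relative Gadd45b rose by 0.34 ± 0.08 in untreated brains and measured 0.09 ± 0.08 in farnesol and 0.20 ± 0.08 in vehicle brains (adjusted p = 0.442 and 0.07). Cdkn1c, the inhibitor p57, fell by 0.29 in vehicle and by 0.38 in untreated brains and measured -0.17 ± 0.10 in farnesol brains (adjusted p = 0.191).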

How the data were processed

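RNA of whole mouse brains was sequenced in 36 libraries (RNeasy kit, 1 µg total RNA, NEBNext Ultra library kit, per the labels' protocols). The authors deposited raw read counts per gene. Reads were aligned with STAR 2.5 to mm10, per the submitters' processing notes, and the extraction protocol also names Kallisto. The counting program, annotation release and strand setting were not given in the sources used here. GENCODE M21 (GRCm38) supplied gene symbols and positions and named 54409 of 54532 identifiers.

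Genes passed edgeR's filterByExpr (minimum count 10, total 15). All 36 libraries entered 1 edgeR 4.0.16 quasi-likelihood fit of group means with TMM scaling (R 4.3.3), with Benjamini-Hochberg adjustment over 18438 genes and a threshold of 0.05. CPM are counts scaled by the TMM-adjusted library size. The SE is the log2 change over the square root of F, and intervals cover 95%. Fits were tested on simulated counts. Named genes were all 32, with per-library values for the 5 lowest-p genes of each class and Top2a, Mcm2 and Cdkn1a, and 4 genes of each wider list. The genes and lists were chosen with earlier results of these data known. Alternatives were DESeq2 1.42.0, limma-voom (limma 3.58.1), RLE scaling, other filters, 2-group fits, a replicate block, a library set term, sets apart, and fits without doubted libraries or each library in turn. Replicate numbers were not taken to pair the samples.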

Additional observations from a re-analysis of the deposited data

Results flagged for a closer look

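Values that stood apart from the rest of their group were found in 12 of the 128 groups of values examined. Chance gives about 1 in 20 for independent, normally distributed values. The values here include low read counts and genes high in the same library, so that rate is only a rough guide. In farnesol replicate 3, 5 genes stood high: Mcm6 at 13.6 CPM (next highest 9.88 CPM), Birc5 at 3.52 CPM, Kif11 at 4.75 CPM, Prc1 at 6.99 CPM and Ube2c at 2.99 CPM. Bub1 was high in farnesol replicate 9, at 1.85 CPM. Cenpe was high in vehicle replicate 4, at 3.43 CPM. In the untreated group Pcna was low in replicate 1, at 30.0 CPM, and Cdk1 was high in replicate 6, at 2.36 CPM. In naive brains Ccnb2 was low in replicate 6, at 0.435 CPM, Kif20a was high in replicate 4, at 1.85 CPM, and Cdc20 was low in replicate 4, at 0.359 CPM.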

How the results depend on the processing

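A gene recomputed in an alternative was counted as unchanged if its call stayed the same, even where an uncalled change crossed 0. A median was counted as unchanged if it shifted by less than the SD of the libraries within groups. Each value counted is 1 gene or median in 1 comparison and 1 fit, so the same gene can count more than once. By these rules 4598 values were unchanged, 94 no longer passed, 56 newly passed, 2 medians moved and 1 called gene reversed. That one was Kif23 in vehicle against naive brains with the library set as a term, at -0.019 ± 0.34 (edgeR adjusted p = 0.985). With the set term, which rests on the farnesol libraries alone, 1 of the 32 genes was called in vehicle (1 mitosis gene) and 0 in untreated brains (0 mitosis genes). Within 1 set, 7 mitosis genes were called in farnesol brains, where the 32 genes together were called about as often as all genes. In vehicle brains 7 mitosis genes were called with no count filter, and 6 of the 32 genes (5 mitosis genes) without the libraries rich in Sbp. The cause was not tested, and the share of all genes called in these 2 kinds of fit is not given here. Leaving out 1 library gave 10 to 14 calls in farnesol (9 to 12 mitosis genes), 8 to 13 in vehicle (8 to 12) and 5 to 6 in untreated brains (5 to 6) against naive. It gave 0 to 1 in farnesol against untreated and 0 to 0 in the other comparisons between EAE groups. With the replicate number as a block, 11, 11 and 6 genes were called in farnesol, vehicle and untreated against naive brains. For the leave-one-out and block fits too, the share of all genes called is not given here. Correlations of same-numbered libraries were over 0.1 in 1, 0 and 0 of 8 pairs with naive, and in 4, 2 and 3 of 9 pairs in farnesol against vehicle, farnesol against untreated and vehicle against untreated (highest 0.28, 0.43 and 0.16). A library correlated best with the library of its own number in 1, 0 and 0 of 8 pairs with naive. Between the EAE groups this held for 1, 1 and 1 of 9 pairs. Nothing in the labels ties samples across groups, so the numbers were not taken to pair them. In farnesol against naive brains Mcm7 was called higher with RLE scaling, DESeq2, limma-voom, a mean of at least 1 CPM, only 2 groups, within 1 set and without the libraries rich in Sbp. Mcm4 was called lower in the same fits except RLE scaling and the 1 CPM filter. Low counts limit the mitosis genes, with a median of 7.5 reads per library for Bub1.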
